A study of Mus musculus with 12 samples.

Results

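The genes described here are 8 genes of the cardiac pacemaker and conduction system, a set listed by name, among the 53700 genes counted in mouse hearts. They are the pacemaker channel genes Hcn4 and Hcn2, the calcium channel genes Cacna1g and Cacna1d, the sodium channel subunit gene Scn4b, the transcription factor gene Tbx3, the connexin gene Gja5 and the cell adhesion gene Cntn2. All 8 were found in the counts and all 8 were among the 17847 genes that passed the filter on low counts. Heart RNA was compared between 6 mice called ac-WT and 6 called ac-CYB5R3-KO, and every mouse was a male that carried 1 copy of the Myh6-CreERT2 transgene, a Cre recombinase under a cardiomyocyte promoter that tamoxifen activates. The Cyb5r3 alleles were CYB5R3wt/wt in ac-WT and floxed on both chromosomes (fl/fl) in ac-CYB5R3-KO mice, both groups came from a backcrossed line of mixed origin, and tamoxifen (33 mg/kg each day, 5 days in a row) was given to both, starting when the mice were 10 to 13 weeks old. Hearts were taken 5 days after treatment. Each library is 1 mouse. Because the recombinase acts only where the Myh6 promoter is active, cells other than cardiomyocytes keep Cyb5r3 in ac-CYB5R3-KO hearts too.

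The heartbeat starts in the sinoatrial node, where the hyperpolarization-activated HCN channels and the calcium channels Cav1.3 and Cav3.1 depolarize the cell membrane between beats. The impulse is slowed in the atrioventricular node and then spread through the His bundle and the Purkinje fibers, whose cells are coupled by connexin 40 and use fast sodium current. Tbx3 is a transcriptional repressor of the working muscle program in the nodes and the proximal conduction system. These cells are a small share of the heart, and in RNA of a whole tissue fewer cells of a type and less RNA per cell cannot be told apart.

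Libraries held 43393183 to 53754284 counts. TMM (trimmed mean of M values, a scaling to the genes that most libraries share) gave ac-WT mice 2 and 3 factors of 0.570 and 0.723 and the other 10 hearts factors of 0.988 to 1.22, so levels in these 2 hearts are raised most by the scaling. The members' values and the lists that depend most on these 2 hearts are given without them too. Levels are in CPM (counts per 1000000 counts of a library after this scaling), with the SD over 6 mice. Cyb5r3, the targeted gene, was between 81.9 and 186 CPM in ac-WT and between 42.1 and 67.4 CPM in ac-CYB5R3-KO hearts, where its mean was 42.8% of that in ac-WT hearts (edgeR, adjusted p = 0.045). Without ac-WT mice 2 and 3 that share was 37.2% and the ac-WT values ran from 110.7 to 186 CPM.

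The tissue label, heart, was checked against regional markers fixed as lists. Myl2, the ventricular myosin light chain, was between 2807 and 13670 CPM in ac-WT and between 2270 and 3122 CPM in ac-CYB5R3-KO hearts, and its highest ac-WT value was 4786 CPM without ac-WT mice 2 and 3. Myl7, the atrial light chain, was between 0.196 and 2.00 CPM over all 12 hearts. Sln (sarcolipin) and Bmp10, which atrial muscle cells express, had at most 2 and 3 counts in any heart and were at 0 in 7 and 6 of the 12 hearts. Isl1, a transcription factor gene of the sinoatrial node, had 0 counts in all 12 hearts, which allows at most 0.0558 to 0.0691 CPM (3 counts per library, counting error only), and Vsnl1, another sinoatrial marker, had at most 2 counts. Shox2, a transcription factor gene of the sinoatrial node and its surroundings, was between 0.175 and 1.36 CPM. The other listed atrial markers were detected, Nppa at 405 to 1616 CPM, Kcna5 at 4.80 to 32.2 CPM, Myl4 at 4.97 to 9.75 CPM and Tbx5 at 1.52 to 9.57 CPM, and ventricular muscle can express these too. Sln, Bmp10, Isl1 and Vsnl1 were thus at or near 0, Myl7 and Shox2 were at levels like those of the lower members, and Myl2 was far above all of them. The study names whole hearts as the source of this RNA, and which portion of the frozen tissue was powdered is not given in the sources used here.

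**Figure D1:**
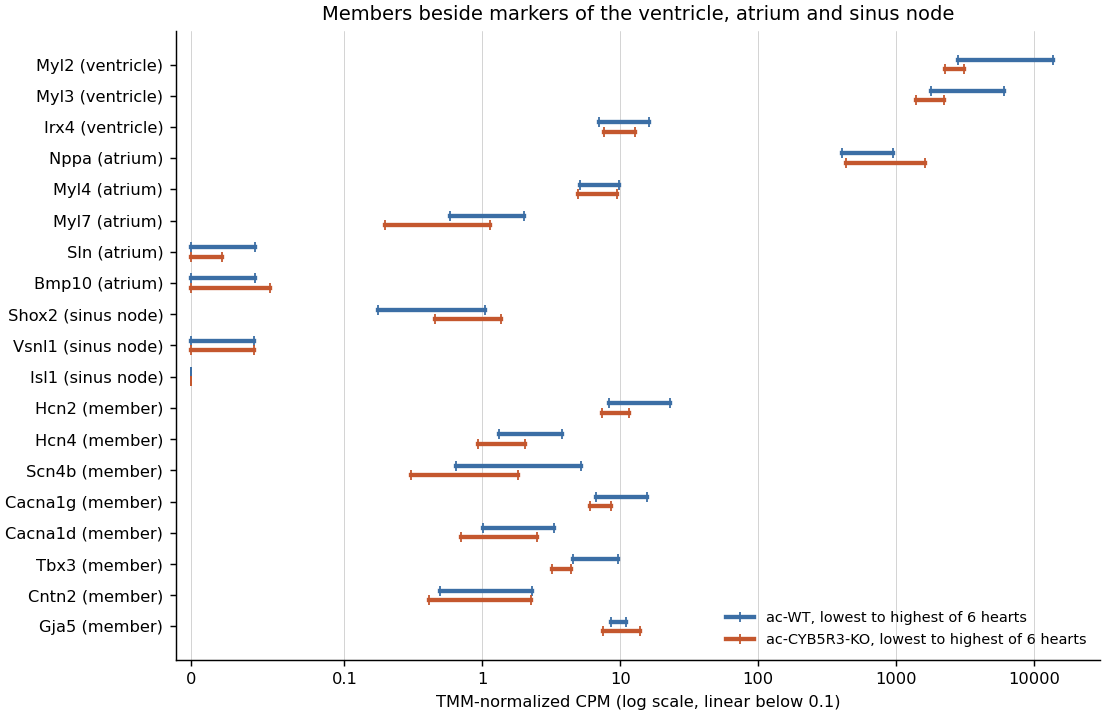
Range of TMM-normalized CPM (horizontal axis, log scale that is linear below 0.1) over the 6 ac-WT hearts (blue) and the 6 ac-CYB5R3-KO hearts (orange) for markers of the ventricle, atrium and sinus node and for the 8 members. Myl2 sits at 2270 CPM or more, Sln, Bmp10, Vsnl1 and Isl1 sit at or near 0, and the members lie between 0.305 and 23.2 CPM.

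RefSeq promoter windows (build GRCm38.p6, 250 bases before to 50 bases after the start of a transcript) were found for 6 of the 8 genes, all but Tbx3 and Cacna1g. The windows of 5 genes are shown because their levels moved together from heart to heart in a group of 3 (Hcn4, Hcn2 and Scn4b) and in a pair (Gja5 and Cntn2), as described further on. They lie at chr9:58822699-58822998 on the plus strand for Hcn4, chr10:79716384-79716683 (plus) for Hcn2, chr9:45138374-45138673 (plus) for Scn4b, chr3:97032152-97032451 (plus) for Gja5 and chr1:132542891-132543190 (minus) for Cntn2. Each is written from 5′ to 3′ on the strand of the gene. Capitals mark matches, on either strand, to the T-box core AGGTGT, the NK2 homeobox core AAGTG and the GC box GGGCGG.
Hcn4: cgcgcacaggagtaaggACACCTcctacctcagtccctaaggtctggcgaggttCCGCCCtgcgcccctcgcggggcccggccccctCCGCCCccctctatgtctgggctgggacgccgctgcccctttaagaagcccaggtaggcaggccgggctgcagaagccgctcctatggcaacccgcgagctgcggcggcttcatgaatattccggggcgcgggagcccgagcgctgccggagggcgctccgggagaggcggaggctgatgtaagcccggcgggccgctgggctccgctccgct
Hcn2: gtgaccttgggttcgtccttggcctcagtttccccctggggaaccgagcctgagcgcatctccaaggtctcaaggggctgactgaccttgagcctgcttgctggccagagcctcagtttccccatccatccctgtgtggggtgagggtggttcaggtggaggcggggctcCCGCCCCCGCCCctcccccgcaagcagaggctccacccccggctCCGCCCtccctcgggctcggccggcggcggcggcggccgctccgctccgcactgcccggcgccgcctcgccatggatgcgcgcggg
Scn4b: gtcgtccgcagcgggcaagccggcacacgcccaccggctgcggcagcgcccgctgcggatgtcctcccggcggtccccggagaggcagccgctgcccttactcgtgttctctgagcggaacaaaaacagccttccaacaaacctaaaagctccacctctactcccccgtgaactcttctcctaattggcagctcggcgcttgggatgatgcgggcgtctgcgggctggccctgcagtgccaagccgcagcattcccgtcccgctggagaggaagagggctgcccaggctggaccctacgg
Gja5: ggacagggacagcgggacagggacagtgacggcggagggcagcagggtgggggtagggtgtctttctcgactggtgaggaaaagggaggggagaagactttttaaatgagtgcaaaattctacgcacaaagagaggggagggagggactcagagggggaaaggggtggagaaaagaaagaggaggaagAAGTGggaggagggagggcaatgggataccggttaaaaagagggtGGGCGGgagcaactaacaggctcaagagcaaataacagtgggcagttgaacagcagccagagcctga
Cntn2: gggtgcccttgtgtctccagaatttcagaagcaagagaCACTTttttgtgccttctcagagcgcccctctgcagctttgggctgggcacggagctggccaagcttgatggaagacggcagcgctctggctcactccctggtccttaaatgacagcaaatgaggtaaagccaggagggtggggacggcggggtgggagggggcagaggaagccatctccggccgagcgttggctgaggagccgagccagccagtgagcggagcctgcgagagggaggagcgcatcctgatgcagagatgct
Hcn4 held 1 match to AGGTGT, which 13.7% of the 32851 promoter windows in the table hold. It also held 2 matches to GGGCGG, a motif found in 35.7% of all windows, and Hcn2 held 3. Gja5 and Cntn2 each held 1 match to AAGTG, which 46.4% of all windows hold, and Gja5 held 1 match to GGGCGG. Scn4b held none of the 3 motifs. Of 6 further motifs, the T-box lettering GGTGTG (19.0% of all windows), the longer T-box lettering TCACACC (4.0%), the E-box CACGTG (7.2%), the cyclic AMP response core TGACGT (7.5%) and the GATA factor site GATAAG (7.4%) had no match in any window of the 6 genes. The TATA box TATAAA (13.6%) had matches only in 1 window of Cacna1d. The share of G and C was 71.7% in Hcn4, 72.3% in Hcn2, 66.3% in Scn4b, 61.3% in Cntn2 and 55.7% in Gja5, against a median of 52.7% over all windows. These letters are a description of the windows and say nothing about binding in these hearts.

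The first question was how the 8 genes differed between the genotypes. Tbx3 and Cacna1g were lower in ac-CYB5R3-KO hearts at an unadjusted p under 0.01 in edgeR's quasi-likelihood test. These 2 of 8 stand beside 3.27% of all genes tested that were lower at that threshold and 1.33% that were higher, and no member was higher. The members were chosen with earlier results of these data known, so such shares are a description and no test of the set. With total counts as the scaling the split over all genes turned, with 141 lower and 285 higher genes, and 1 of the 8, Tbx3, was lower. At an adjusted p under 0.05 (Benjamini-Hochberg over all genes tested) edgeR called 0 of the 8, where it called 0.101% of all genes, and at an unadjusted p under 0.05 it put 4 of the 8 lower (Tbx3, Cacna1g, Hcn4 and Scn4b), beside 9.73% of all genes. DESeq2 called 2 of the 8, the same Tbx3 and Cacna1g, where it called 2.45% of all genes. By sign alone 7 members were lower and 1 was higher, and their median log2 fold change was -0.47, that of all genes tested -0.01. Without ac-WT mice 2 and 3 the members' median was -0.28, with 6 lower and 2 higher, and with total counts it was -0.38 relative to the median of all genes.

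**Figure D2:**
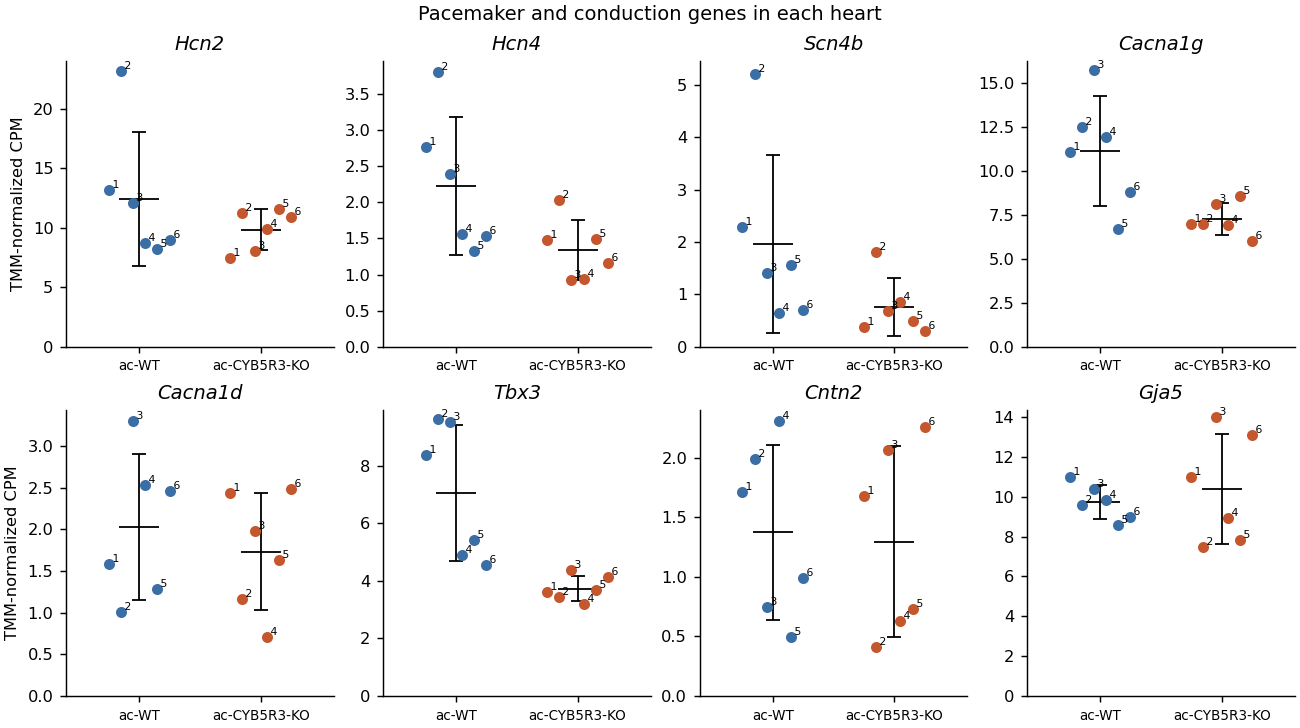
TMM-normalized CPM (vertical axis, from 0) of each member in each of the 12 hearts, with the mouse number beside each point and the mean and SD of the 6 hearts in black. At this scaling Tbx3 is the 1 member whose groups do not overlap (by total counts its groups overlap). The heart of ac-WT mouse 2 stands highest in Hcn2, Hcn4 and Scn4b.

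Hcn4 encodes the main pacemaker channel of the sinoatrial node (ENSMUSG00000032338, chromosome 9, 58671319 to 58708762, plus strand, in NCBIM37). In ac-WT hearts it had a lowest value of 1.33, a median of 1.97 and a highest value of 3.81 CPM, and in ac-CYB5R3-KO hearts 0.930, 1.32 and 2.03 CPM. The groups overlapped. The 3 highest ac-WT hearts, mice 1, 2 and 3, stood above every ac-CYB5R3-KO heart, and the other 3 ac-WT hearts lay within the ac-CYB5R3-KO range. The log2 fold change was -0.73 (SE 0.28, 95% interval -1.34 to -0.12) with an unadjusted edgeR p of 0.0227 and an adjusted p of 0.267, and the two-sided exact permutation test of the CPM means gave p = 0.0606. The difference thus passed an unadjusted edgeR p of 0.05 but not 0.01 or an adjusted p of 0.05. On log2(CPM + 1) the exact permutation p was 0.0433, and blocking on replicate number brought the edgeR p under 0.01. The log2 fold change was -0.41 without ac-WT mice 2 and 3, -0.14 without mice 1, 2 and 3, -0.26 with 1 surrogate variable and -0.36 with total counts, and at none of these did it pass 0.05.

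Hcn2, a faster HCN channel that ventricular and atrial muscle also express (ENSMUSG00000020331, chromosome 10, 79179379 to 79198853, plus strand), stood above Hcn4 per length of transcript (3.88 against 0.588 RPKM in ac-WT hearts, reads per kilobase and CPM unit). Its lowest, median and highest values were 8.25, 10.5 and 23.2 CPM in ac-WT and 7.42, 10.4 and 11.6 CPM in ac-CYB5R3-KO hearts. The medians were close together, and the ac-WT mean was raised by mouse 2. The log2 fold change was -0.33 (SE 0.24, 95% interval -0.84 to 0.18, edgeR adjusted p = 0.527), and it was 0.02 without ac-WT mice 2 and 3 and 0.05 with total counts as the scaling. Hcn3 was too low to be tested.

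The share of HCN transcripts was compared within each library, where the scaling cancels out. The log2 ratio of Hcn4 to Hcn2 counts was -2.46 ± 0.152 in ac-WT and -2.90 ± 0.423 in ac-CYB5R3-KO hearts. The difference of -0.43 had an exact permutation p of 0.0519 (two-sided, 1 of 6 ratios compared, adjusted p = 0.156). The ratio was more even among ac-WT than among ac-CYB5R3-KO hearts, running from -2.61 to -2.24 in the first and from -3.37 to -2.31 in the second.

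Scn4b encodes an auxiliary beta subunit of sodium channels that the Purkinje network expresses (ENSMUSG00000046480, chromosome 9, 44946520 to 44962235, plus strand). It was at 0.643, 1.49 and 5.21 CPM (lowest, median, highest) in ac-WT and at 0.305, 0.583 and 1.81 CPM in ac-CYB5R3-KO hearts. Its hearts varied most among the members in both groups, with a coefficient of variation of 86.3% in ac-WT and 73.6% in ac-CYB5R3-KO hearts. Mouse 2 was the highest of its group in both genotypes. The largest fold change among the members, -1.35 on the log2 scale, had an SE of 0.54 and a 95% interval from -2.52 to -0.19, with an edgeR p of 0.0258, an adjusted p of 0.272 and an exact permutation p of 0.0909. Without ac-CYB5R3-KO mouse 2 the log2 fold change was -1.84 and passed an unadjusted edgeR p of 0.01, and with the replicate block it passed too at -1.28. It was -0.76 without ac-WT mice 2 and 3, -0.35 without mice 1, 2 and 3, -0.50 with 1 surrogate variable and -0.90 with total counts, and at none of these did it pass 0.05. Its counts ran from 15 to 149 per library, so counting error adds to the spread.

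Of 14 listed sodium channel genes 10 were tested, 7 of them lower and 3 higher by sign, and their median was -0.30 on the log2 scale. At an unadjusted p under 0.01 the list held 0 lower genes and 1 higher gene.

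Cacna1g encodes the T-type calcium channel Cav3.1, which carries low-voltage calcium current in nodal cells (ENSMUSG00000020866, chromosome 11, 94269705 to 94335414, minus strand). It was at 6.71, 11.5 and 15.8 CPM in ac-WT and at 6.05, 6.98 and 8.55 CPM in ac-CYB5R3-KO hearts. Of the ac-WT hearts 5 of 6 stood above every ac-CYB5R3-KO heart, and the exception was mouse 5. The mean fell from 11.1 ± 3.13 to 7.26 ± 0.910 CPM (log2 fold change -0.61, SE 0.17, 95% interval -0.99 to -0.24, edgeR adjusted p = 0.184). Its unadjusted p in edgeR was 0.00352, the exact permutation test gave p = 0.0173, and DESeq2 gave an adjusted p of 0.0477. The call at an unadjusted p under 0.01 was lost in 4 of 22 alternatives. There the log2 fold change was -0.39 without ac-WT mice 2 and 3, -0.33 without ac-WT mice 1, 2 and 3, -0.31 with 1 surrogate variable and -0.29 with total counts.

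With total counts as the scaling, the median over all genes stood at 0.26 on the log2 scale. Relative to that median, Cacna1g stood at -0.54 and Tbx3 at -0.82, and 7 of the 8 members remained below 0.

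Cacna1h, the gene of Cav3.2 and the other cardiac T-type channel, fell with it at an unadjusted p under 0.01, from 3.44 ± 2.84 to 1.37 ± 0.334 CPM (log2 fold change -1.31, SE 0.43, edgeR adjusted p = 0.209). Without ac-WT mice 2 and 3 it was at -0.45 and did not pass. The log2 ratio of Cacna1g to Cacna1h was 1.98 ± 0.702 in ac-WT and 2.41 ± 0.389 in ac-CYB5R3-KO hearts, a difference of 0.43 that the replicates did not separate (exact permutation p = 0.216). This difference was 0.20 without ac-WT mouse 3 and 0.03 without ac-WT mice 2 and 3.

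Cacna1d encodes Cav1.3, the L-type channel that opens at lower voltage than Cav1.2 and is enriched in nodes and atria (ENSMUSG00000015968, chromosome 14, 30853135 to 31304342, minus strand). Its values were 1.01, 2.02 and 3.30 CPM in ac-WT and 0.706, 1.81 and 2.48 CPM in ac-CYB5R3-KO hearts, and the groups overlapped over most of their range. Its log2 fold change was -0.23 (SE 0.33, 95% interval -0.95 to 0.49, edgeR adjusted p = 0.766). Relative to Cacna1c, the gene of Cav1.2 (log2 fold change -0.49, edgeR adjusted p = 0.431), the log2 ratio was -5.47 ± 0.707 and -5.37 ± 0.709 (exact permutation p = 0.814). Of 19 listed calcium channel genes 15 were tested, 11 lower and 4 higher by sign with a median log2 fold change of -0.40, and 2 of them, Cacna1g and Cacna1h, were lower at an unadjusted p under 0.01. The median rested on ac-WT mice 2 and 3, without which it was -0.06, with 9 lower and 6 higher. With total counts 8 of the 15 were below 0 (11 of 15 relative to the median of all genes).

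Tbx3 gave the clearest difference (ENSMUSG00000018604, chromosome 5, 120120678 to 120134733, plus strand). Its lowest, median and highest values were 4.55, 6.91 and 9.61 CPM in ac-WT and 3.20, 3.64 and 4.36 CPM in ac-CYB5R3-KO hearts. With TMM the groups did not overlap, with all 6 ac-CYB5R3-KO values under the lowest ac-WT value. This pattern was shown by 1.04% of all genes tested and by no other member. The gap between the groups was small, from 4.36 to 4.55 CPM. By total counts the groups overlapped, with ac-CYB5R3-KO mouse 3 (5.33 CPM) above ac-WT mice 4 and 6 (5.10 and 5.06 CPM). Within ac-WT, mice 1, 2 and 3 were between 8.39 and 9.61 CPM and mice 4, 5 and 6 between 4.55 and 5.42 CPM, while the 6 ac-CYB5R3-KO hearts were closer together (coefficient of variation 11.8% against 33.5%).

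The mean of Tbx3 fell from 7.06 ± 2.36 to 3.73 ± 0.439 CPM, to a fitted fold of 0.530 (log2 fold change -0.92, SE 0.20, 95% interval -1.35 to -0.48). The edgeR p was 0.000465 and the adjusted p 0.141. DESeq2 gave an adjusted p of 0.00473, and the exact permutation p was 0.00216, the smallest that the divisions of 12 mice into 6 and 6 can give. In all 22 alternatives the gene was lower with an unadjusted p under 0.01, with p between 1.8e-05 and 0.00736 and adjusted p between 0.00473 and 0.399. Without ac-WT mice 2 and 3 the log2 fold change was -0.63, and with total counts it was -0.56. Without mice 1, 2 and 3 it was -0.41, the smallest of these values. The exact permutation p on CPM from total counts was 0.00649.

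The Tbx3 exons overlap those of Gm2301 on the other strand, and the strand setting of the counting is not given in the sources used here. Gm2301 was counted less than Tbx3, at 0.628 and 0.334 CPM in the 2 groups (log2 fold change -0.88, edgeR adjusted p = 0.457), and its share of the Tbx3 count was not tested. Tbx5, a T-box activator of conduction genes that competes with Tbx3, had a log2 fold change of -0.25 (edgeR adjusted p = 0.782). It was 0.45 without ac-WT mice 2 and 3 and 0.20 with total counts (-0.05 relative to the median of all genes). The log2 ratio of Tbx3 to Tbx5 was 0.81 ± 0.550 in ac-WT and -0.01 ± 0.511 in ac-CYB5R3-KO hearts, a difference of -0.82 with an exact permutation p of 0.0238 and an adjusted p of 0.143 over the 6 ratios.

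Among 17 listed transcription factor genes of the conduction system 15 were tested, and 5 were lower and 10 higher by sign (median 0.08 on the log2 scale). At an unadjusted p under 0.01 there were 2 lower genes, Tbx3 and Hopx, and 0 higher genes. Hopx, a homeodomain-only cofactor of cardiac muscle and the conduction system, was between 56.4 and 358 CPM in ac-WT and between 25.8 and 43.2 CPM in ac-CYB5R3-KO hearts, with no overlap (log2 fold change -2.05, SE 0.42, edgeR adjusted p = 0.104). Tbx2 at -0.09, Nkx2-5 at 0.05, Gata4 at 0.08, Irx3 at 0.10 and Shox2 at 0.05 on the log2 scale did not pass that threshold.

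**Figure D3:**
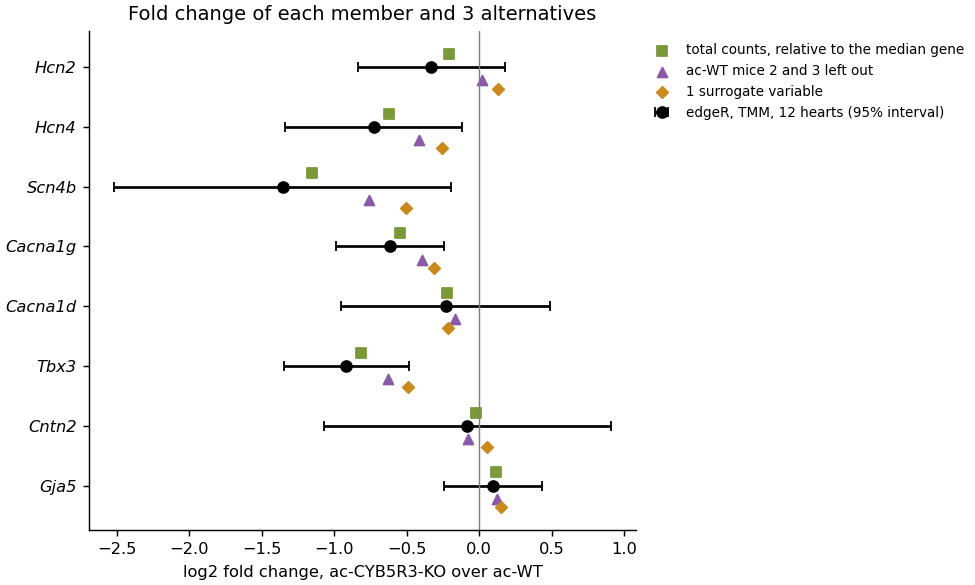
Log2 fold change of each member, ac-CYB5R3-KO over ac-WT, from edgeR with its 95% interval (black), and its value under 3 alternatives (coloured). The intervals of Tbx3, Cacna1g, Hcn4 and Scn4b lie below 0, and leaving out ac-WT mice 2 and 3 brings each of these 4 closer to 0.

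Gja5 encodes connexin 40, the gap junction protein of atrial, His-Purkinje and arterial endothelial cells (ENSMUSG00000057123, chromosome 3, 96708616 to 96881339, plus strand). It was the 1 member higher by sign. Its values were 8.60, 9.72 and 11.0 CPM in ac-WT and 7.48, 9.95 and 14.0 CPM in ac-CYB5R3-KO hearts. The log2 fold change was 0.09 with the narrowest SE of the 8, 0.16, and a 95% interval from -0.25 to 0.43 (edgeR adjusted p = 0.802), so a change of the size seen in Tbx3 lay outside its interval. Its spread was wider in ac-CYB5R3-KO hearts, with a coefficient of variation of 26.6% against 9.0%. The log2 ratio of Gja5 to Gja1, the connexin 43 gene of working muscle, averaged -4.87 in both groups (SD 0.240 and 0.616, exact permutation p = 1.0). Of 11 listed connexin genes 6 were tested, 1 lower and 5 higher by sign, with a median log2 fold change of 0.14, and 0 passed an unadjusted edgeR p of 0.01, with 1, the arterial endothelial connexin gene Gja4, past 0.05.

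Exons of Gja5 overlap those of Gpr89 on the other strand, which was at 6.85 and 5.97 CPM (log2 fold change -0.20, edgeR adjusted p = 0.406). If the counting did not use strand, reads in the stretch where these exons overlap cannot be told apart. The summed level of 6 arterial endothelial markers was between 60.2 and 108 CPM in ac-WT and between 60.9 and 98.5 CPM in ac-CYB5R3-KO hearts, with 0 of 6 past an unadjusted edgeR p of 0.01 and 2, Gja4 (higher) and Sox17 (lower), past 0.05.

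Cntn2 encodes contactin 2, a cell adhesion molecule of Purkinje cells and of neurons (ENSMUSG00000053024, chromosome 1, 134406002 to 134439517, minus strand). Its values were 0.491, 1.35 and 2.30 CPM in ac-WT and 0.413, 1.20 and 2.26 CPM in ac-CYB5R3-KO hearts, over nearly the same range. It had a log2 fold change of -0.08 (SE 0.46, 95% interval -1.07 to 0.91, edgeR adjusted p = 0.946), an interval that would hold a change like that of Tbx3. With 24 to 122 counts per library and hearts several-fold apart within each group, a difference of that size was not detectable. Of 11 listed neuron and Schwann cell markers 6 were tested and 2 were lower at an unadjusted p under 0.01, Dbh among them. The list summed to between 41.7 and 137 CPM in ac-WT and between 100.4 and 168 CPM in ac-CYB5R3-KO hearts. Most of this sum was Uchl1, at 27.7 to 130 and 95.6 to 163 CPM (log2 fold change 0.74). By sign 4 of the tested genes were lower and 2 higher, with a median log2 fold change of -0.74. Chrna3 was at 0 in all 12 hearts, and Th had at most 13 counts. The part of nerve cells in the Cntn2 level was not tested.

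Levels were also compared between genes, per kilobase of the exons annotated in NCBIM37 (RPKM). Hcn2 was highest in ac-WT hearts at 3.88 ± 1.77 RPKM, followed by Gja5 at 1.69, Tbx3 at 1.32, Cacna1g at 1.11, Hcn4 at 0.588, Scn4b at 0.398, Cacna1d at 0.217 and Cntn2 at 0.144 RPKM. Hcn2 stood above Gja5 and Cacna1g above Hcn4 in all 6 hearts of both groups. Hcn4 stood above Scn4b in 5 of 6 ac-WT and 6 of 6 ac-CYB5R3-KO hearts. Tbx3 and Cacna1g, on the other hand, traded places between hearts, with Tbx3 higher in 4 of 6 ac-WT and 2 of 6 ac-CYB5R3-KO hearts, and so did Scn4b and Cacna1d (3 of 6 and 2 of 6). The counts use newer gene models than the lengths, so this order rests on exon lengths of an older annotation, such as 3195 bases for Hcn2 and 3798 bases for Hcn4.

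Members were then compared with each other across hearts, as deviations of log2(CPM + 1) from the mean of their own group over 12 hearts, which share the library, its depth and its scaling. These correlations are given as a description. Hcn2 and Hcn4 deviated together (r = 0.828), and so did Scn4b with Hcn2 (0.785) and with Hcn4 (0.764). With total counts in place of TMM these were 0.587, 0.588 and 0.566, and without ac-WT mice 2 and 3 they were 0.648, 0.482 and 0.567. The 3 genes were highest in mouse 2 of the ac-WT group, and within the 6 ac-CYB5R3-KO hearts the values were 0.349, 0.303 and 0.478. Tbx3 followed Hcn2 (0.676) and Hcn4 (0.669) under TMM but less so with total counts (0.188 and 0.241). These values under TMM were 0.817 and 0.888 within ac-WT hearts and -0.263 and -0.355 within ac-CYB5R3-KO hearts.

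Cntn2 and Gja5 formed the other pair (r = 0.779, 0.712 with total counts, 0.871 without ac-WT mice 2 and 3). It was 0.960 within ac-CYB5R3-KO and 0.470 within ac-WT hearts. In ac-CYB5R3-KO hearts mice 1, 3 and 6 were the 3 highest in both genes. In Gja5 they stood at 11.0, 14.0 and 13.1 CPM, against 7.48, 8.92 and 7.82 CPM in mice 2, 4 and 5. In Cntn2 they stood at 1.67, 2.06 and 2.26 CPM against 0.413, 0.628 and 0.733 CPM. The same 3 hearts had the highest sums of red blood cell transcripts (4204, 12220 and 6717 CPM against 1322, 2385 and 2056 CPM), a part that was not tested. Scn4b and Cacna1d ran against each other (r = -0.704, and -0.795 with total counts), in both groups (-0.747 in ac-WT and -0.686 in ac-CYB5R3-KO hearts).

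**Figure D4:**
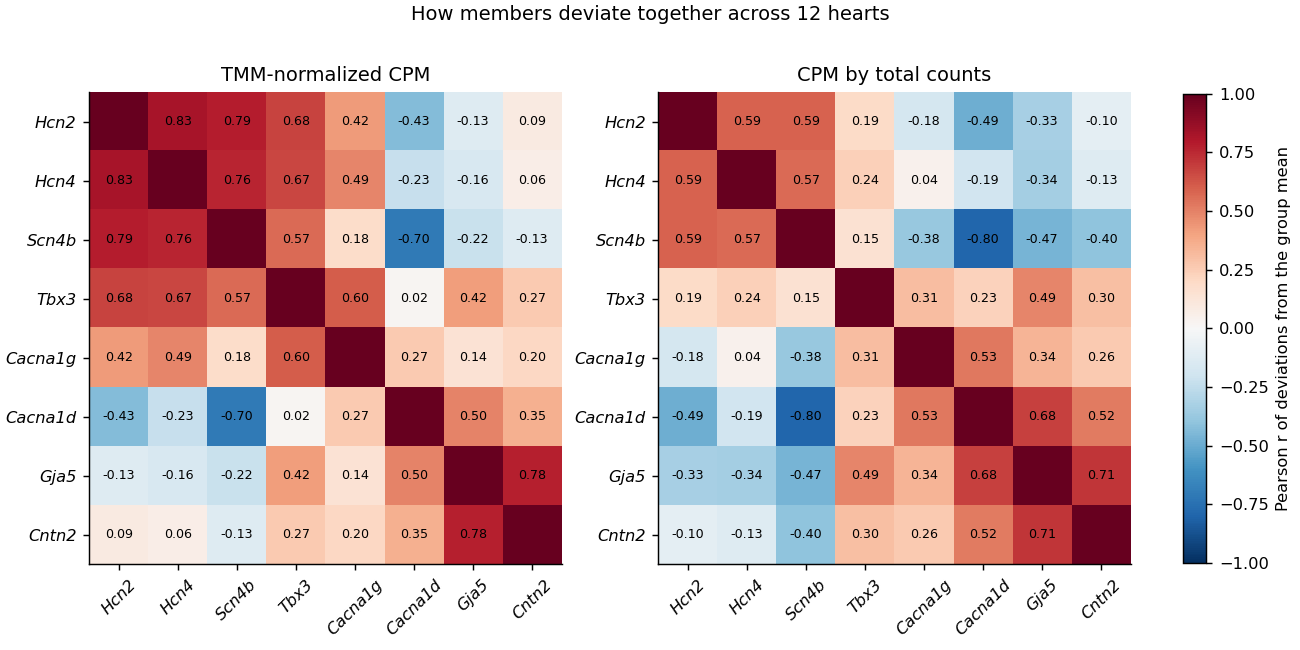
Pearson r between members of deviations of log2(CPM + 1) from the group mean over 12 hearts, with TMM-normalized CPM on the left and CPM by total counts on the right (colour scale from -1 to 1). Hcn2, Hcn4 and Scn4b form a block that weakens with total counts, and Cntn2 with Gja5 stays at 0.779 and 0.712.

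Among 14443 genes of mean CPM 1 or more, those whose deviations were most like a member over the 12 hearts were Ttc17 for Hcn2 (r = 0.957), Ppp1r15a for Hcn4 (0.928), Hmgb3 for Scn4b (0.954) and Tsc1 for Cacna1g (0.968). For Tbx3 the nearest gene was Ntf3 (0.976), for Cntn2 it was Gm5940 (0.855), and for Gja5 it was Pms2 (0.916). The next nearest were Mfhas1 and Nhlrc1, Acsl6 and Pdp2, 4930572J05Rik and Scgb1c1, Kif13b, Cnot10 and Ppp1r10, Pms2 and Gm6254, and Plk3 and Nfkbiz, in the same order of members, and Ocrl and Zfp414 were near Cacna1d. Pms2 was thus near both Gja5 and Cntn2. None of these genes belongs to the 6 lists of pathway genes.

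The other genes of these families and of the conduction system, taken from the 6 lists without the members, numbered 75, of which 55 were tested. By sign 29 were lower and 26 higher (median -0.09 on the log2 scale), and without ac-WT mice 2 and 3 it was 21 and 34 (median 0.06). At an unadjusted p under 0.01 there were 3 lower genes (Kcne1, Hopx and Cacna1h) and 2 higher genes, Nrg1 among them. Kcne1, the auxiliary subunit of the slow delayed rectifier potassium channel, was the 1 gene with an adjusted p under 0.05, at 5.43 to 12.1 CPM in ac-WT and 1.89 to 4.27 CPM in ac-CYB5R3-KO hearts (log2 fold change -1.35, SE 0.23, edgeR adjusted p = 0.0476). Nrg1, a growth factor gene whose product directs conduction cell fate in the embryo, was between 0.550 and 2.10 CPM in ac-WT and between 1.69 and 4.60 CPM in ac-CYB5R3-KO hearts (log2 fold change 0.91, SE 0.29, edgeR adjusted p = 0.207). Without ac-WT mice 2 and 3 the log2 fold changes were -1.03 for Kcne1, -1.09 for Hopx and 1.04 for Nrg1. The 18 listed markers of conduction cells, of which 14 were tested, had 1 lower gene and 1 higher gene at that threshold, these same Kcne1 and Nrg1, and a median log2 fold change of -0.24, which was 0.03 without ac-WT mice 2 and 3.

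**Figure D5:**
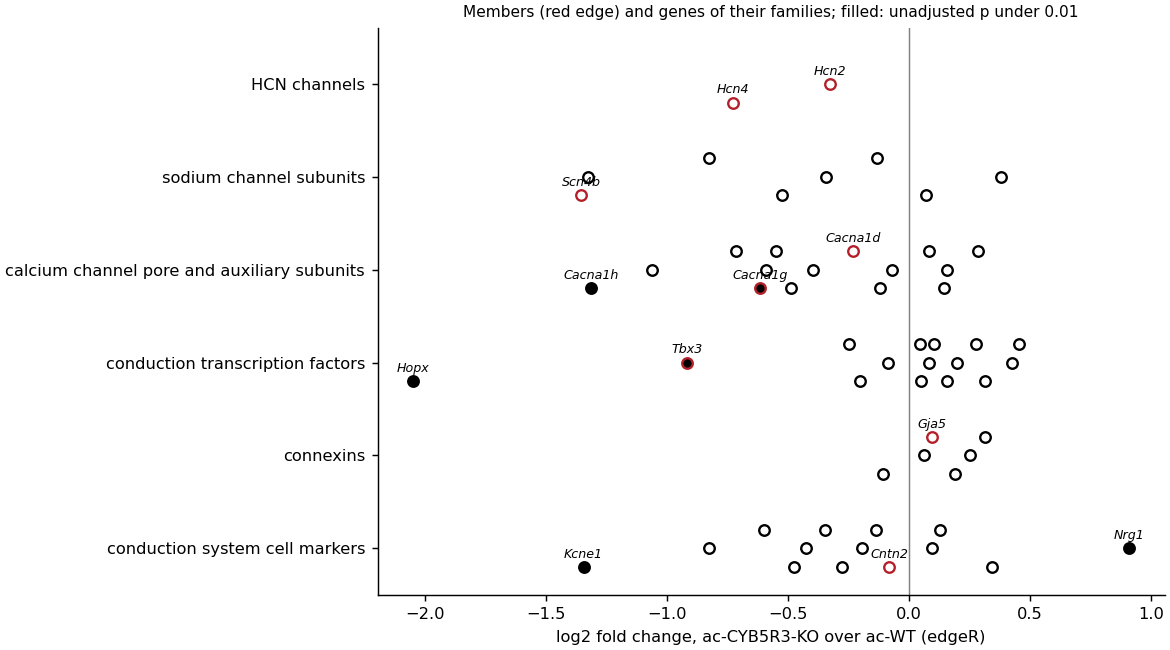
Log2 fold change (ac-CYB5R3-KO over ac-WT, edgeR) of tested genes of 6 lists (3 are not drawn), with the members edged in red and genes at an unadjusted p under 0.01 filled. Of the calcium channel genes 11 of 15 lie below 0 (9 of 15 without ac-WT mice 2 and 3, 8 of 15 with total counts), and Hopx, Cacna1h, Kcne1, Tbx3 and Cacna1g are the filled points below 0.

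Markers of muscle and of other tissues moved between the groups as well. Ventricular markers summed to 4622 to 19730 CPM in ac-WT and 3670 to 5367 CPM in ac-CYB5R3-KO hearts, with 2 of 4 lower at an unadjusted edgeR p under 0.01. Without ac-WT mice 2 and 3 the highest ac-WT sum was 7762 CPM and 1 of 4 was lower. The 7 markers of muscle cells of any chamber summed to 16360 to 33400 and 13080 to 22040 CPM (1 of 7 lower). Their highest ac-WT sum was 21850 CPM without ac-WT mice 2 and 3. The cartilage list summed to 5.42 to 52.5 CPM in ac-WT and 70.6 to 150.4 CPM in ac-CYB5R3-KO hearts, with 4 of 6 tested genes higher. Most of this sum was Comp, Col11a1 and Col9a2. Col2a1 and Acan were at most 0.958 and 0.654 CPM in any heart, and Col9a3 was lower by sign (log2 fold change -0.11). Atrial markers summed to 442.9 to 1004 CPM and 459 to 1647 CPM, nearly all of it Nppa, with 0 of 5 past that threshold. Markers of smooth muscle (75.4 to 187.5 and 76.9 to 138.4 CPM, 2 of 4 lower), of endothelium (267 to 615.7 and 297.3 to 510.9 CPM, 0 of 5), of skeletal muscle (11.3 to 32.96 and 12.6 to 39.5 CPM, 0 of 3) and of adipose tissue (12.7 to 34.1 and 15.4 to 26.2 CPM, 0 of 1) overlapped between the groups, and red blood cell transcripts ran from 221.5 to 4483 and from 1322 to 12220 CPM. The adipose sum was nearly all Cidea, with Adipoq, Plin1, Ucp1 and Lep at 0.559 CPM or less in every heart. The part of muscle and of these other tissues in the levels of Tbx3, Cacna1g and the other members was not tested.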

How the data were processed

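The authors sequenced stranded total RNA libraries as unpaired reads, removed adapters (fastq-mcf, Trimmomatic), aligned to mm9 with STAR (the submitters' processing notes name STAR, featureCounts and GRCm39) and deposited whole-number counts per Ensembl gene and heart, unnormalized. The strand setting and annotation are not given in the sources used here. The authors' own tests used Cuffdiff on FPKM.

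Counts of 53700 genes, 31027 of them with a symbol in the NCBIM37 annotation, were filtered with filterByExpr (minimum count 10), scaled by TMM and tested two-sided with the quasi-likelihood test of edgeR 4.0.16 (R 4.3.3) over all 12 mice, with Benjamini-Hochberg adjustment over 17847 genes. The biological coefficient of variation was 26.5%. Fits were tested on simulated data. CPM and within-library log2 ratios (1 count added) were compared by two-sided exact permutation tests. Alternatives were DESeq2 1.42.0, limma-voom (limma 3.58.1), other scalings and filters, a replicate block, 1 surrogate variable (sva 3.50.0) and left-out mice. Leaving out ac-WT mice 1, 2 and 3 was added after seeing the data.

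The members and gene lists were chosen with earlier results of these data known. Named were all members, listed pathway genes with an unadjusted p under 0.01, counterparts in ratios, the 3 genes nearest each member over hearts, and defining markers. Other listed genes, such as Gja4, Sox17, Tbx2 and Nkx2-5, were named after their values were seen. Some genes that this rule names, and 1 ratio, are not reported here. Hearts are separate mice, so p-values measure the spread between animals. Intervals on counts of 0 cover counting error only.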

Additional observations from a re-analysis of the deposited data

Results flagged for a closer look

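Of 28 groups of 6 hearts tested with Dixon's criterion, over the 8 members and the within-library ratios, 3 held a heart whose gap to its neighbour was too large a share of the range, where chance gives about 1 in 20. Hcn2 in ac-WT mouse 2 was 23.2 CPM, and the gap to the next heart was 0.671 of the range of the group. Scn4b in the same heart was 5.21 CPM, with a gap of 0.641 of the range. Scn4b in ac-CYB5R3-KO mouse 2 was 1.81 CPM, with a gap of 0.628. The ac-WT heart had the lowest TMM factor, 0.570, and by total counts its Hcn2 level was 13.2 CPM, close to the 13.0 CPM of ac-WT mouse 1. Its Scn4b level by total counts was 2.97 CPM, beside 2.25 CPM in ac-WT mouse 1. The ac-CYB5R3-KO heart had a TMM factor of 1.13.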

How the results depend on the processing

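Across 22 alternatives Tbx3 kept its direction and an unadjusted p under 0.01 in 22, and Cacna1g its direction in 22 and that p in 18. The 2 members lower at that threshold became 1 with total counts, with 1 surrogate variable, and after leaving out ac-WT mice 2 and 3 or mice 1, 2 and 3, became 4 with the replicate block, and ran from 2 to 4 when 1 mouse at a time was left out, the 4 coming without ac-CYB5R3-KO mouse 2. Hcn4 and Scn4b were the added members in both cases, and Scn4b was under 0.01 in DESeq2 too (its unadjusted p there was 0.00879). The 0 members with an adjusted p under 0.05 became 2 in DESeq2. The 5 wider genes at an unadjusted p under 0.01 became 3 without ac-WT mice 1, 2 and 3 and ran from 3 to 8 with 1 mouse left out. Over all genes, calls at an unadjusted p under 0.01 numbered 820 in edgeR, 1238 in DESeq2, 426 with total counts (141 lower and 285 higher, against 583 and 237 in edgeR with TMM), 376 with a surrogate variable and 426 after leaving out ac-WT mice 2 and 3, and calls at an adjusted p under 0.05 ran from 2 to 437.

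Values near 0 changed sign. The log2 fold change of Hcn2 became 0.0514 with total counts, 0.13 with the surrogate variable, 0.0219 without ac-WT mice 2 and 3 and 0.19 without mice 1, 2 and 3. That of Cacna1d became 0.0333 with total counts. That of Cntn2 became 0.23 with total counts, 0.0524 with that variable and 0.0367 without ac-WT mice 1, 2 and 3, and ran from -0.31 to 0.13 with 1 mouse left out. That of Gja5 ran from -0.0058 (without ac-CYB5R3-KO mouse 3) to 0.17 with 1 mouse left out, and it was 0.38 with total counts. With CPM from total counts the mean difference changed sign in Hcn2 (exact permutation p = 0.753), Cacna1d (0.909) and Cntn2 (0.665). Without ac-WT mice 2 and 3 the difference of the log2 ratio became -0.25 for Cacna1d to Cacna1c and -0.0312 for Gja5 to Gja1, and with 1 mouse left out these ran from -0.10 to 0.30 and from -0.19 to 0.16. That of Hcn4 to Hcn2 reached an exact permutation p of 0.0216 without ac-CYB5R3-KO mouse 1 and 0.026 without mouse 2. The causes were not tested.

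The replicate numbers of the labels mark different mice. Deviations of mice of the same number correlated at 0.144 on average (-0.0716 to 0.349) and those of other pairs at -0.0281. Of the 12 hearts, 6 correlated best with their own number. Same-number values were thus higher on average, and whether the numbers carry a shared structure was not tested. The labels name no pairing, so the main test used none, and the replicate block is given as an alternative. The replicate block gave 672 genes at an unadjusted p under 0.01, with Hcn4 at -0.69 and Scn4b at -1.28 on the log2 scale. Depth limits Scn4b, Cntn2 and Cacna1d most, with as few as 15, 24 and 29 counts in a library.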
